A study of Mus musculus with 50 samples.

Results

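Cells chosen by the TPM values of 2 genes of cell division, Ube2c and Ccnb1, were compared among 50 single hemogenic endothelial cells made in culture (iHECs). A cell was called positive when both genes were above TPM 1 and negative when both were at or below TPM 1. By this rule 19 of the 50 cells were positive (38%, exact Clopper-Pearson 95% interval 24.7% to 52.8%) and 16 were negative (32%, 19.5% to 46.7%). The other 15 cells had only one of the genes above TPM 1 and were left out. TPM is a length-scaled transcript abundance on a common total per cell. The intervals cover counting error over cells only.

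The mouse embryonic stem cells of origin were of the C57BL/6 strain and carried an inducible Runx1 cassette in the Rosa26 locus, which doxycycline switches on, and all 50 cells share this genotype and treatment. The study sorted the iHECs as CD31+ CD41low CD45- c-kit+ CD201high and amplified the cDNA of each cell. There is 1 group and no untreated group, and the labels name no culture or clone for a cell, so the 50 cells are 1 sample without replicates. No significance test was therefore made, and every difference below describes these 50 cells. The Runx1 row does not separate transcripts of the cassette from those of the cell's own gene.

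Hemogenic endothelium is the vessel-lining cell type from which the first lasting blood cells arise, through loss of endothelial character and gain of a blood program under Runx1. A dividing cell copies its DNA in S phase and then, in G2 and M phase, makes the proteins that condense, align and separate the chromosomes. Cyclin B1, encoded by Ccnb1, activates the kinase Cdk1 at entry into mitosis. Ube2c encodes the ubiquitin-conjugating enzyme that works with the anaphase-promoting complex, whose activator is Cdc20, to have cyclin B destroyed when mitosis ends. Messages of such genes accumulate in G2 and M phase, so a cell early in its cycle can lack them and still be cycling.

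The promoters of the rule's genes, of Cdc20 and of Cdk1 are shown because G2/M genes are known to share short promoter elements, the CCAAT box and the cell cycle homology region (CHR). The sequences are the 150 bases before the RefSeq start on GRCm38.p6, written along the gene's strand. Capitals mark CCAAT or its reverse complement ATTGG, and TTTGAA, its reverse complement TTCAAA or the palindrome TTTAAA as CHR letters. The Ube2c promoter lies at chr2:164769779-164769928 (plus strand), that of Ccnb1 at chr13:100786487-100786636, that of Cdc20 at chr4:118437344-118437493 and that of Cdk1 at chr10:69352913-69353062 (all minus strand).
Ube2c: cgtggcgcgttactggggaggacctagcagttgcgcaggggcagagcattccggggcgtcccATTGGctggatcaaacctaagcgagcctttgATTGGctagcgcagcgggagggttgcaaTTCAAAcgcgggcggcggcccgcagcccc
Ccnb1: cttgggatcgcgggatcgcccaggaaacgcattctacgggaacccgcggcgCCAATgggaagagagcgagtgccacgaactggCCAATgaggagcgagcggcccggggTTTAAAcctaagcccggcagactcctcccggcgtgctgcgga
Cdc20: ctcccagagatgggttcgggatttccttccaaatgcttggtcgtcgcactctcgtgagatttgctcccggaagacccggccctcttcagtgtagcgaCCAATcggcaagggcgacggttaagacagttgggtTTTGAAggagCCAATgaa
Cdk1: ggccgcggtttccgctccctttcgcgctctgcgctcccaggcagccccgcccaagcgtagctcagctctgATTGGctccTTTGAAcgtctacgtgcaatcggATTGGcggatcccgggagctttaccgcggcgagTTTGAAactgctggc
Each of the 4 promoters held 2 CCAAT matches, and each held 1 CHR match except that of Cdk1, which held 2. Over all 32851 RefSeq promoters of the same length, 24.5% held a CCAAT match, 14.7% held a CHR match and 3.6% held both. A match is a description of letters and not a measured site.

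The values of Ube2c and Ccnb1 chose the cells and are given as a description only. Ube2c was listed at 0 in 18 cells, lay above 0 and up to TPM 1 in 4, between TPM 1 and 10 in 14 and above TPM 10 in 14, with a highest value of 3137 TPM. Ccnb1 was listed at 0 in 10 cells, lay above 0 and up to TPM 1 in 15, between TPM 1 and 10 in 8 and above TPM 10 in 17, with a highest value of 1734 TPM. Many cells were thus close to the threshold. The positive cells nearest to it were cell 4-7 (Ube2c 1.98, Ccnb1 1.06 TPM) and cell 3-12 (1.1 and 1.88 TPM), where the numbers are those of the sample titles. The nearest negative cells were cell 4-1, with Ccnb1 at 0.950 TPM, and cell 2-17, with Ube2c at 0.884 TPM.

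Of the 19 positive cells, 10 had both genes above TPM 10 and are called high-level cells (20% of all cells, interval 10% to 33.7%). Ube2c in these 10 ranged from 53.7 to 3137 TPM (median 1397) and Ccnb1 from 38.4 to 1734 TPM (median 530). The other 9, called low-level cells, had Ube2c between 1.1 and 6.22 TPM (median 2.31) and Ccnb1 between 1.06 and 114 TPM (median 2.87). No cell had a Ube2c value between these ranges together with Ccnb1 above TPM 1.

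**Figure D1:**
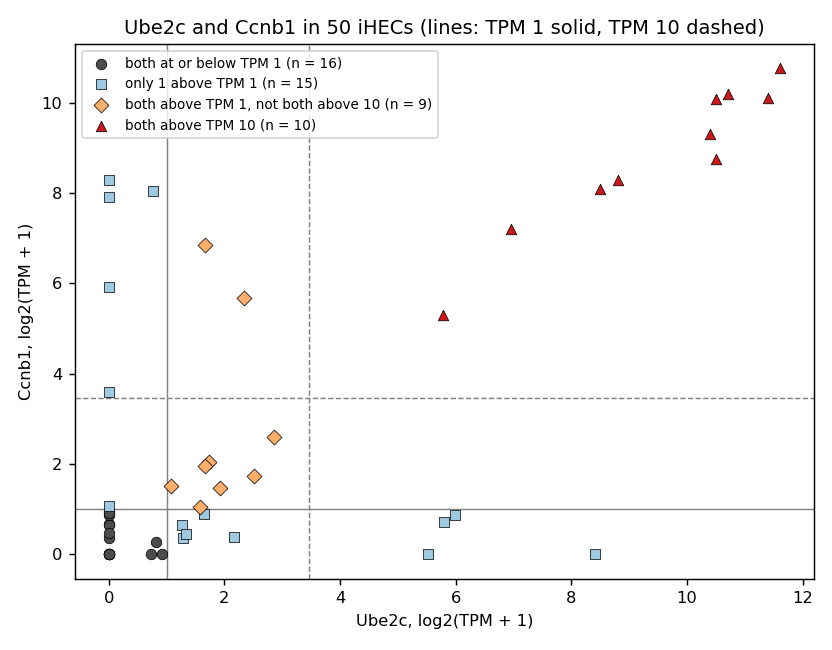
Each point is 1 of 50 cells, with Ube2c on the x axis and Ccnb1 on the y axis, both as log2(TPM + 1); symbols give the class. The 10 high-level cells stand apart at the upper right, while the 9 low-level cells lie near the solid lines at TPM 1.

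The label of dividing cells was then checked against division genes that the rule did not use. A list of G2/M genes (187 rows without Ube2c and Ccnb1) was averaged per cell on the log2(TPM + 1) scale. In the 16 negative cells this mean ran from 1.69 to 2.84 (median 2.32), in the 9 low-level cells from 1.82 to 2.68 (median 2.23) and in the 10 high-level cells from 2.40 to 6.68 (median 5.77). Of the high-level cells, 9 of 10 lay above the highest negative cell, and of the low-level cells 0 of 9 did. An S phase list (125 rows) gave the same counts, with 9 of 10 high-level cells and 0 of 9 low-level cells above the highest negative cell at 2.93. Of the 15 cells left out by the rule, 1 lay above the highest negative cell in each list. The exception among the high-level cells was cell 1-11, with a G2/M mean of 2.40 and 53.7 TPM of Ube2c.

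Individual division genes varied in how they followed the lists. Top2a, the topoisomerase that untangles replicated chromosomes, had a median of 148 TPM in the high-level cells and was above TPM 1 in 9 of 10, against 1 of 9 low-level and 3 of 16 negative cells. Mki67, the gene of the proliferation marker Ki-67, was above TPM 1 in 9 of 10, 2 of 9 and 3 of 16 cells of these groups. Cdc20 had medians of 560, 1.67 and 0.436 TPM. The replication genes Mcm5, a subunit of the replicative helicase, and Cdc45, its partner, were above TPM 1 in 10 and 9 of the 10 high-level cells, in 2 and 1 of the 9 low-level cells and in 6 and 1 of the 16 negative cells. Other division genes were also present in low-level cells. Pole2, a subunit of DNA polymerase epsilon, was above TPM 1 in 9 of 10 high-level, 6 of 9 low-level and 2 of 16 negative cells, with medians of 27.9, 35.7 and 0 TPM. Spc25, a kinetochore subunit, was above TPM 1 in 10 of 10, 5 of 9 and 5 of 16 cells, with medians of 306, 32.1 and 0.524 TPM, and Cdc20 in 10 of 10, 6 of 9 and 4 of 16 cells.

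The data therefore went against the label of dividing cells for the 9 low-level cells and for cell 1-11, which lay within the range of the negative cells in both lists. The 19 cells are called positive by the rule below, and not dividing cells. Absence of the rule's genes was not absence of all division genes either. Cdk1 was above TPM 1 in 14 of 16 negative cells (median 71.1 TPM, highest 206) and in 9 of 9 low-level cells (median 74.5 TPM), against a median of 410 TPM in the high-level cells. Pcna, the sliding clamp of DNA replication, was above TPM 1 in 15 of 16 negative cells, at a median of 107 TPM. Among inhibitors of the cycle, Cdkn1a (p21) had medians of 924 TPM in the high-level, 885 in the low-level and 711 in the negative cells, with ranges that overlapped. Cdkn1c (p57) was above TPM 1 in 1 of 16 negative cells and in no positive cell.

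**Figure D2:**
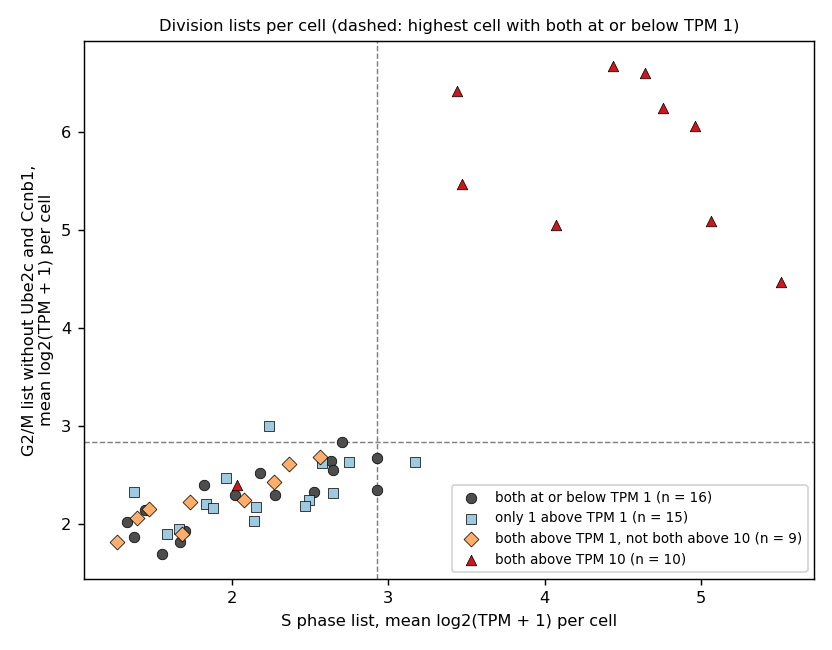
Each point is 1 cell, with the mean log2(TPM + 1) of the S phase list on the x axis and that of the G2/M list, without the rule's genes, on the y axis. Dashed lines mark the highest negative cell: 9 of 10 high-level cells lie above both, and the 9 low-level cells lie among the negative cells.

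The number of genes above TPM 1 per cell differed between the groups, and depth cannot be read from TPM. Its median was 6446 in the positive cells (range 4326 to 8615) and 6154 in the negative cells (4402 to 7306), so the ranges overlapped. Within the positive cells it was 6780 in the high-level (6243 to 8615) and 5730 in the low-level cells (4326 to 7655). The cell with the fewest genes, cell 4-6 with 2400, had only Ube2c above TPM 1 and was left out by the rule. The number of genes was entered as a covariate in a linear fit of log2(TPM + 1) on the class. The adjusted difference of a gene is the coefficient of the class in that fit, positive minus negative. The pair share is the percentage of pairs of 1 positive and 1 negative cell in which the positive cell was higher after the covariate was taken out, so that 50% means no difference.

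A gene was counted as higher when its adjusted difference was at least 1 on the log2 scale, its sign was the same within each of the 4 first title numbers, and its pair share was at least 75%. It was counted as lower at -1, the same sign and a pair share of at most 25%. The meaning of the first title number is not given in the labels. Of 8794 genes outside the cell cycle lists that were above TPM 1 in at least 20% of the cells, 45 were higher (0.512%) and 46 were lower (0.523%) in the positive cells. Without the covariate the counts were 60 higher and 12 lower, so the split depended on it. With the first title number as a factor they were 90 higher and 109 lower. The median adjusted difference of these 8794 genes was -0.02. Over all 9104 tested genes, cell cycle lists included, 0.857% were higher and 0.505% lower. Of these lists, 28 of 153 tested members of the G2/M list were higher and 0 lower (list median 1.16), and 3 of 100 of the S phase list were higher and 0 lower (list median 0.62). The 3 S phase genes, Cdc45, Pole2 and Hist1h2ae, passed the filter on low values only through the positive cells. So did some of the 28, among them Mki67 and Ube2t, and these counts describe the classes only.

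Of 68 tested members of the endothelial list, 0 met the criterion by the rule in either direction, a count near the shares over the 8794 genes outside the cell cycle lists (0.512% higher and 0.523% lower). Of the 68, 23 had a positive difference and the list median was -0.17, with medians between -0.51 and 0.17 over the first title numbers. Cdh5, the adherens junction cadherin of endothelium, had medians of 78.5 TPM in the positive and 170 TPM in the negative cells (ranges 19.8 to 253 and 58.5 to 1168 TPM), an adjusted difference of -1.05 and a pair share of 25.3%. Its groups overlapped, and it missed the pair share criterion narrowly. Hspg2, the basement membrane proteoglycan perlecan, differed by -1.13 with a pair share of 23.4% but not with the same sign in every first title number. At the other end Ptrf (cavin-1, a coat protein of caveolae) differed by 0.60.

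The surface markers of the sort were measured in both classes. Pecam1 (CD31) ranged from 139 to 773 TPM in the positive cells (median 326) and from 80.6 to 1319 TPM in the negative cells (median 420). Procr (CD201) had medians of 322 and 282 TPM, and Kit of 34.8 and 48.6 TPM. Itga2b (CD41) had medians of 47.7 and 14.3 TPM and a difference of 1.15 with a pair share of 62.2%. Ptprc (CD45) was listed at 0 in all 50 cells. None of the markers met the criterion, and the groups overlapped for each of those with values. The endothelial markers Pecam1 and Cdh5 were above TPM 1 in every positive and negative cell.

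Of the 56 tested blood genes (transcription factors, leukocyte, myeloid and megakaryocyte lists), 2 were higher and 0 lower in the positive cells, where 0.512% and 0.523% of genes outside the cell cycle lists were. The median of the lists was 0.09, beside -0.02 over those genes, and it was not stable: leaving out first title number 1 gave 0.42, number 2 -0.03, number 3 0.20 and number 4 0.36. Both genes called were transcription factors of blood formation. Runx1 (chr16:92601466-92826074), the factor under the inducible cassette, ranged from 0.30 to 913 TPM in the positive cells (median 294) and from 0.690 to 500 TPM in the negative cells (median 28.4). Its adjusted difference was 2.22 and its pair share 76.6%. Gata2 (chr6:88193891-88207032), a zinc finger factor of blood stem cells and their endothelial precursors, had medians of 44.7 TPM (0 to 86.7) and 6.62 TPM (0 to 50.4), a difference of 1.68 and a pair share of 77.0%. For both genes the groups overlapped.

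Runx1 and Gata2 had higher medians in the low-level as well as the high-level cells. Runx1 had a median of 317 TPM in the high-level cells and 275 TPM in the low-level cells. Against the negative cells its adjusted difference was 1.76 in the high-level and 2.56 in the low-level cells. Gata2 had medians of 50.8 and 33.2 TPM and differences of 1.83 and 1.53. Of these 4 differences only that of Gata2 in the high-level cells met the criterion. The 15 cells left out by the rule had medians of 134 TPM for Runx1 and 13.0 TPM for Gata2, between those of the negative and positive cells. With the 29 cells that had both rule genes at or below TPM 10 as the lower group, Runx1 differed by 0.78 and Gata2 by 1.31, and neither met the criterion. Over 7 other settings of that level Runx1 ran from -0.24, without first title number 2, to 1.66, so its direction turned, and it met the criterion in 0, and Gata2 ran from 0.88 to 1.82 and met it in 3.

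Of 229 tested members of 8 metabolic lists, 1 was higher and 0 lower by the rule, near the shares of 0.512% and 0.523% outside the cell cycle lists, with a median of 0.08. The median was 0.22 without the covariate, where all genes stood at 0.15, and leaving out first title number 1 gave 0.17 and number 4 gave 0.04. The gene that was higher was Adk (chr14:21052574-21448569), adenosine kinase, which returns adenosine to the nucleotide pool. It was above TPM 1 in 16 of 19 positive cells (median 68.1 TPM, range 0 to 232) and in 7 of 16 negative cells (median 0.732 TPM, range 0 to 145), with a difference of 2.64 and a pair share of 80.3%. All 10 high-level cells had at least 46 TPM, and 6 of 9 low-level cells were above TPM 1. At the level of TPM 10 Adk did not meet the criterion, and it did so in 1 of 7 other settings of that level (0.85 to 3.00). By list, the medians were 0.25 for glycolysis, 0.33 for the TCA cycle, 0.07 for the pentose phosphate pathway, 0.06 for nucleotide synthesis, 0.06 for cholesterol synthesis, -0.12 for fatty acid genes, 0.28 for amino acid genes and 0.03 for the respiratory chain. Without the covariate they were, in the same order, 0.36, 0.56, 0.33, 0.38, 0.31, 0.15, 0.50 and 0.10, so the direction of the fatty acid genes turned. Over the first title numbers the TCA cycle median ran from -0.85 to 0.80.

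The 12 higher genes with the largest pair shares include Adk. Among the others, Apitd1 (the centromere protein CENP-S) was listed at 0 in 16 of 16 negative cells and was above TPM 1 in 12 of 19 positive cells, 8 of the high-level and 4 of the low-level ones. Its pair share was 87.5% and its difference 2.68, a fitted value that depends on the pseudocount, and it passed the filter on low values only through the positive cells. Nsl1 (chr1:191062996-191084558), a kinetochore subunit, was above TPM 1 in 9 of 10 high-level cells, 0 of 9 low-level cells and 0 of 16 negative cells, and it passed the filter on low values only through the high-level cells. Lrwd1, which binds the origin recognition complex, was above TPM 1 in 15 of 19 positive and 5 of 16 negative cells. None of these 3 was a member of the cell cycle lists used here.

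Other higher genes among the 12 have mixed roles. Aars, the cytosolic alanyl-tRNA synthetase, had medians of 47.6 and 0.204 TPM in the positive and negative cells and a pair share of 84.9%. Crkl, a signaling adaptor, had medians of 31.4 and 0.331 TPM. Mpp7, a scaffold of cell junctions, was above TPM 1 in 15 of 19 and 5 of 16 cells, and in 10 of 10 high-level cells. Heatr5a, Naa25 (a subunit of an N-terminal acetyltransferase), Rp9 and Glipr2 had differences between 1.7 and 2.93. Heatr5a was above TPM 1 in 23 of 50 cells, 14 of them positive, and passed the filter on low values only through the positive cells. Aars and Crkl had medians of 58.5 and 38.5 TPM in the low-level cells and of 45.8 and 24.2 TPM in the high-level cells.

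Among the 12 lower genes with the smallest pair shares, Fem1c, a substrate receptor of a ubiquitin ligase, had a median of 0.236 TPM in the positive and 25.4 TPM in the negative cells and was above TPM 1 in 6 of 19 and 12 of 16 cells. Its difference was -3.45 and its pair share 13.8%. Setd4, a methyltransferase, was above TPM 1 in 0 of 19 positive and 6 of 16 negative cells. It was above TPM 1 in 13 of all 50 cells, so it passed the filter on low values only through the negative cells. The others have varied roles. Chmp1a, an ESCRT subunit, had medians of 70.6 and 112 TPM, Bet1, a SNARE of transport from the endoplasmic reticulum, 44.6 and 89.9 TPM, Aup1, of lipid droplets and protein quality control, 151 and 229 TPM, and Erlin2, also of the endoplasmic reticulum, 6.87 and 33.8 TPM. Wdr11, Cfl2 (muscle cofilin), Pld3, Pdf, Whamm and Mmgt2 had differences between -2.78 and -1.55. Whamm was above TPM 1 in 19 of 50 cells, 10 of them negative, and also passed the filter on low values only through the negative cells. Of 37 tested members of the chaperone list 1 was lower, beside 0.523% of genes outside the cell cycle lists. It was Cct3, a subunit of the cytosolic chaperonin (medians 462 and 605 TPM, difference -1.05), which at the level of TPM 10 met the criterion in 0 of 7 settings (-1.21 to 0.06).

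Because the division list means of 10 of the 19 positive cells were not above those of the highest negative cell, the level for the classes was moved to TPM 10, which had been listed as an alternative. This set 10 high-level cells against 29 cells with both genes at or below TPM 10, and 11 cells were left out. The genes named from here on were chosen after their values were seen, unless they are named above. TPM medians below are given for the high-level, low-level and negative cells, and not for the 29 cells as a group. Of the G2/M list, 82 of 153 tested members were then higher and 0 lower (median 2.56), and of the S phase list 28 of 100 were higher and 0 lower (median 1.66). Called members such as Top2a, Mki67 and Cdc45 passed the filter on low values only through the high-level cells, so these counts describe the classes only. Over all tested genes 1.94% were higher and 2.58% lower. The cell cycle lists do not hold every division gene, and Nsl1, Apitd1 and Wee1 were counted outside them. Outside the cell cycle lists 58 genes were higher (0.66%) and 234 lower (2.66%).

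This split rested on the covariate. Without it, 192 genes were higher and 13 lower, and the median of all 8794 genes moved from -0.13 to 0.34. The high-level cells had more genes above TPM 1 than the 29 others (median 6780 against 6073), and the part of this in the differences was not tested. Lists below are therefore set against the median of these 8794 genes, called all genes where medians are given. Of these genes, 42.9% had a positive difference at TPM 10. Leaving out cell 1-11, a choice made after seeing the data, gave 95 higher and 332 lower genes. Of the rule's calls outside the cell cycle lists, 11 of 45 higher genes (24.4%) and 11 of 46 lower genes (23.9%) were also called at TPM 10, where they were 19% of the higher and 4.7% of the lower genes. Both comparisons contain the same 10 high-level cells.

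The genes that were higher at TPM 10 in each of 7 other settings (without the covariate, with the first title number as a factor, without cell 1-11, and without each first title number in turn; these were chosen after seeing the data) were examined among the 12 with the largest pair shares and the list members called. They were Psmc3ip, Nsl1, Apitd1, Mpp7, Wee1, Acy1, Mta1 and the gene model Gm6682. Psmc3ip and Nsl1 were each above TPM 1 in 11 of 50 cells, 9 of them high-level, Apitd1 in 15, 8 of them high-level, and Wee1 in 18, 9 of them high-level. These 4 genes passed the filter of 20% of cells only through the group in which they were high, and their calls support nothing further. Psmc3ip (chr11:101092141-101095435), a cofactor of strand exchange in DNA recombination, was above TPM 1 in 9 of 10 high-level, 0 of 9 low-level and 0 of 16 negative cells, at a median of 42.5 TPM in the first. Wee1, the kinase that holds Cdk1 inactive before mitosis, was above TPM 1 in 9 of 10, 1 of 9 and 5 of 16 cells. Acy1 (chr9:106432981-106438236), an aminoacylase that releases amino acids from their acetylated forms, ranged from 25.3 to 102 TPM in the 10 high-level cells (median 56.7) and was above TPM 1 in 2 of 9 low-level and 3 of 16 negative cells. Its adjusted difference at TPM 10 was 3.70, and between 3.09 and 4.34 in the other settings.

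In the endothelial list, 0 of 68 tested genes were higher and 6 were lower at TPM 10 (Cdh5, Vwf, S1pr1, Thbd, Ets1 and Lamb1), where 2.66% of genes outside the cell cycle lists were lower. Of the 68, 17 had a positive difference and the median was -0.34, beside -0.13 for all genes. Without the covariate the list median was -0.22, beside 0.34 for all genes. Cdh5 (chr8:104101613-104144504) ranged from 19.8 to 120 TPM in the high-level cells (median 66.3), from 27.3 to 253 TPM in the low-level cells (median 195) and from 58.5 to 1168 TPM in the negative cells (median 170). The groups overlapped, with the high-level cells at the low end. Its difference at TPM 10 was -1.39 with a pair share of 14.1%, and it was lower in each of the 7 other settings, between -1.72 and -1.05.

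The other 5 endothelial genes depended more on the setting. Vwf, the clotting and platelet adhesion factor stored in endothelium, had medians of 1.83 TPM in the high-level, 24.3 in the low-level and 15.3 in the negative cells and was called in 4 of the 7 settings. S1pr1, the receptor for sphingosine 1-phosphate, had medians of 148, 376 and 254 TPM and was called in 5. Thbd, encoding thrombomodulin, was called in 5, and Ets1, a transcription factor, and Lamb1, a laminin chain, each in 2. Thbd was above TPM 1 in 12 of 50 cells, 6 of them negative, and passed the filter on low values only through the negative cells. Esam, another junction molecule, had medians of 438, 493 and 570 TPM, and Tek, the angiopoietin receptor, of 73.7, 39 and 76.5 TPM, and neither met the criterion. Of 14 tested arterial genes 1 had a positive difference (median -0.63) and 1 was lower, the Notch ligand Jag2, where 42.9% of genes outside the cell cycle lists had a positive difference and 2.66% were lower.

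The stem cell factor receptor Kit (chr5:75574987-75656722) was lower at TPM 10, with a difference of -1.59, and it was called in 6 of the 7 settings, not without the covariate (-0.85). Its TPM medians were close, at 33.7 in the high-level, 34.8 in the low-level and 48.6 in the negative cells, and the groups overlapped. In the blood lists 0 of 56 genes were higher and 2 lower at TPM 10, Vwf as a megakaryocyte gene and Inpp5d, a count near the 2.66% lower outside the cell cycle lists. Inpp5d (chr1:87620312-87720510), the phosphatase SHIP1 of blood cells, had medians of 14.5, 46.3 and 34.2 TPM, a difference of -2.11 and was lower in each of the 7 settings.

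Of the 229 metabolic genes 2 were higher and 6 lower at TPM 10, the lower count near the 2.66% of genes outside the cell cycle lists. Beside those named below these were Sms (spermine synthase), which was higher, and Fads1 (a fatty acid desaturase) and Bcat2 (the mitochondrial branched-chain aminotransferase), which were lower. Of 20 tested glycolysis genes 0 were higher, 4 were lower (Slc2a1, Hk2, Pfkm and Pdk1) and 3 had a positive difference, with a list median of -0.26 in the fit. Over the 7 other settings the median ran from -0.53 to -0.02, the last without the covariate, where all genes stood at 0.34. Slc2a1 (chr4:119108745-119137330), the glucose transporter GLUT1, ranged from 36.6 to 1094 TPM in the high-level cells (median 405), from 507 to 1496 TPM in the low-level cells (median 810) and from 8.24 to 1641 TPM in the negative cells (median 932). It differed by -1.53 and was called in 6 of the 7 settings. Pdk1, the kinase that keeps pyruvate out of the TCA cycle, had medians of 30.9, 93.6 and 57.5 TPM and was called in 3, and Pfkm changed sign without the covariate (-1.79 against 0.32). Ldha, lactate dehydrogenase A, had medians of 3796, 3786 and 2885 TPM, with an adjusted difference of 0.12, and the enolase gene Eno1 had medians of 3135, 3125 and 1937 TPM and a difference of -0.04.

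Of 34 tested nucleotide synthesis genes, 27 had a positive difference at TPM 10 and the list median was 0.44, between 0.29 and 1.18 in the 7 other settings. Dhodh, the mitochondrial enzyme of pyrimidine synthesis, was above TPM 1 in 10 of 10 high-level cells (median 35.6 TPM, range 10.5 to 84.0), 3 of 9 low-level and 6 of 16 negative cells. It was the only member called of 34 (difference 2.33), where 0.66% of genes outside the cell cycle lists were higher, and it was called in 4 of the 7 settings. Of 22 tested cholesterol synthesis genes, 17 had a positive difference and 0 were called, with a median of 0.67 that ran from -0.13 to 1.67 over the first title numbers. Fdps, which makes farnesyl diphosphate, had medians of 1292, 190 and 534 TPM in the high-level, low-level and negative cells. The TCA cycle median was 0.09 and that of the respiratory chain 0.18, where all genes stood at -0.13. Without the covariate, where all genes stood at 0.34, the medians were 1.18 for nucleotide synthesis, 1.42 for cholesterol synthesis, 0.68 for the TCA cycle and 0.23 for the respiratory chain. Over the first title numbers the TCA cycle median ran from -0.47 to 0.25.

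**Figure D3:**
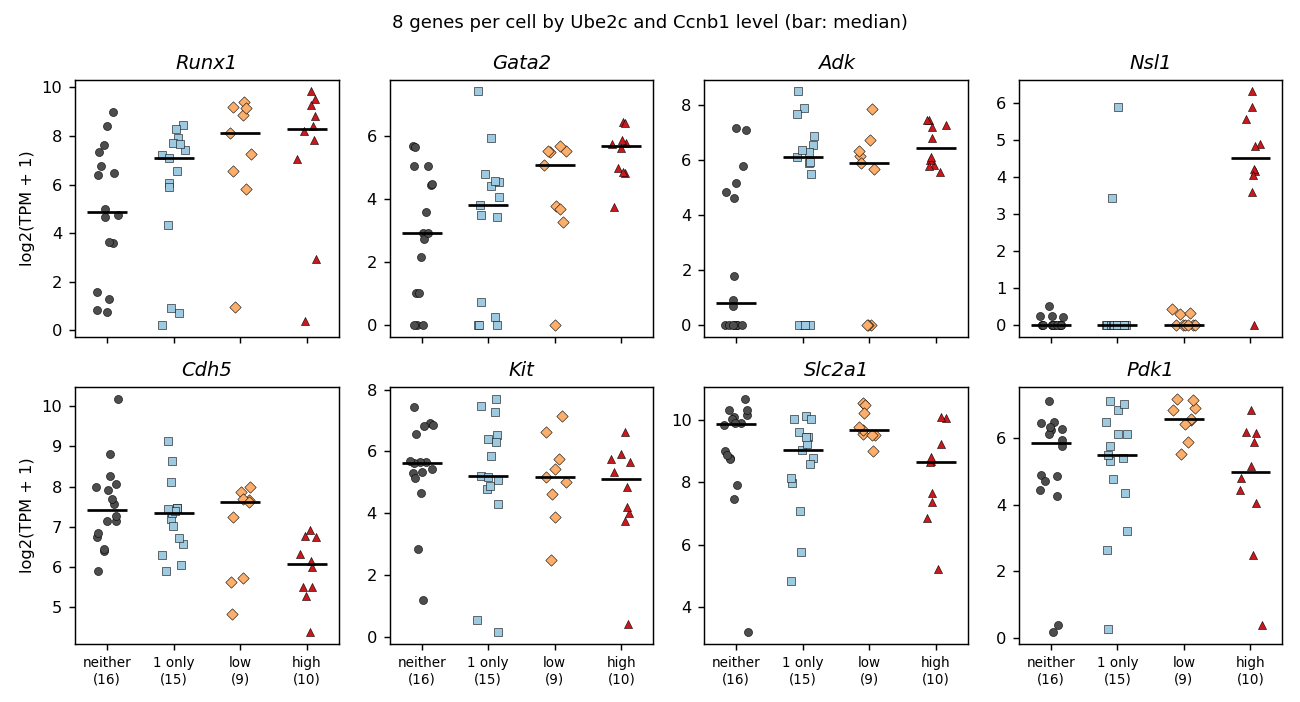
Each point is 1 cell, with log2(TPM + 1) on the y axis and the cells grouped as neither rule gene above TPM 1, only 1 of them, low-level and high-level; bars are medians. Nsl1 is above TPM 1 in 9 of 10 high-level cells and in none of the negative or low-level cells, Cdh5 is lowest in the high-level cells, and Runx1 and Gata2 are at like levels in the low-level and high-level cells.

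Comparisons of the high-level and of the low-level cells with the same 16 negative cells were added after the data were seen, and they share those negative cells. The high-level cells gave 129 higher (1.47%) and 308 lower (3.5%) genes outside the cell cycle lists, and 2.78% higher and 3.41% lower over all tested genes. The low-level cells, which did not stand apart in the division lists (G2/M median 0.07, S phase median -0.11), gave 166 higher (1.89%) and 80 lower (0.91%) genes, and 1.87% higher and 0.912% lower over all tested genes. A count of higher genes of this size was thus also seen between groups of 9 and 16 cells whose division lists overlapped. The count of lower genes there was smaller, at 80 against 308 for the high-level cells.

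With the covariate, glycolysis had medians of opposite sign in the 2 comparisons. In the low-level cells 17 of 20 glycolysis genes had a positive difference (median 0.72, between 0.38 and 1.31 over the first title numbers), and in the high-level cells 5 of 20 did (median -0.21, between -1.04 and -0.02). The median of all genes was 0.07 in the low-level and -0.09 in the high-level cells, and 53.4% and 45.3% of them had a positive difference. Without the covariate both glycolysis medians were positive, 0.53 in the low-level cells, where all genes stood at -0.07, and 0.26 in the high-level cells, where all genes stood at 0.35. These ranges rest in part on single cells, since number 4 held 1 low-level cell and numbers 2 and 4 held 1 high-level cell each, and so did the same-sign requirement at TPM 10. Pdk1 was higher in the low-level cells (1.62) and lower in the high-level cells (-1.31), each against the same negative cells. The endothelial median was 0.14 in the low-level and -0.42 in the high-level cells, and the nucleotide synthesis median -0.21 and 0.63. By the rule, which joins both sets of positive cells, the medians were 0.25 for glycolysis, -0.17 for endothelial genes and 0.06 for nucleotide synthesis.

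**Figure D4:**
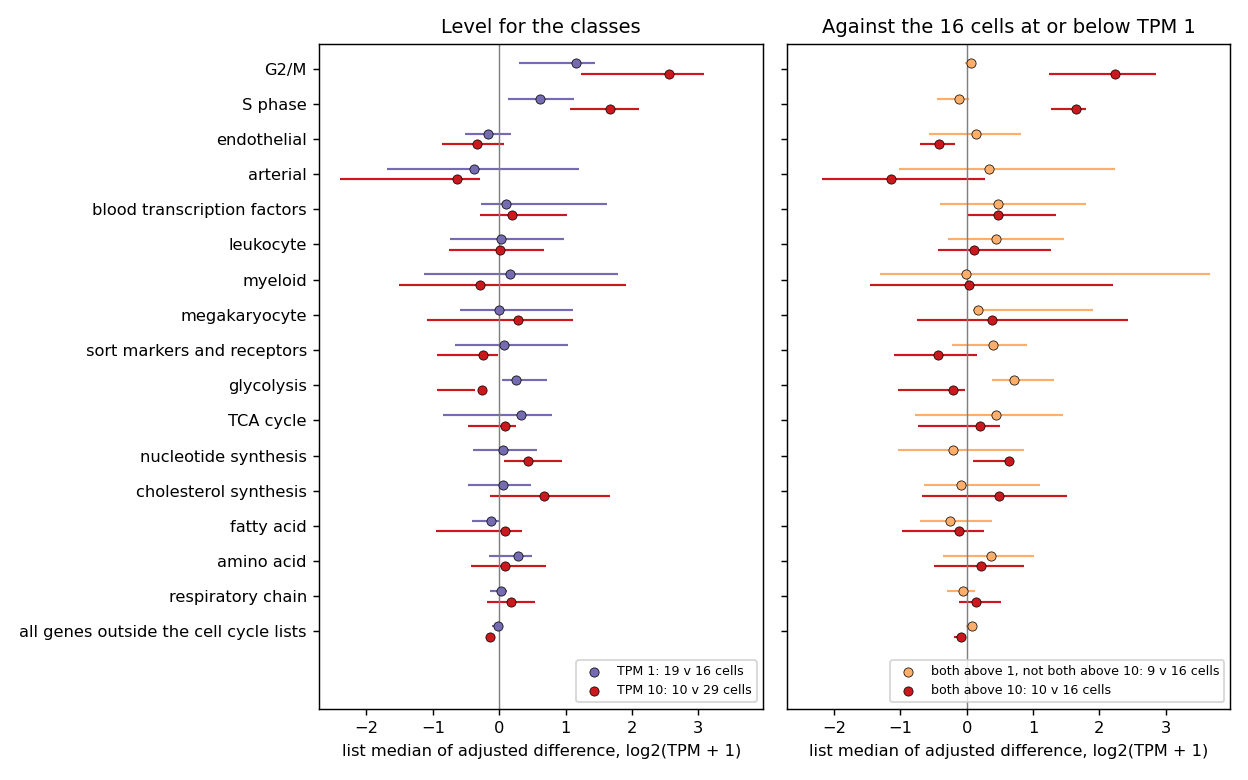
Points are list medians of the adjusted difference on the log2(TPM + 1) scale, and lines run from the lowest to the highest median over the 4 first title numbers; the left panel compares the levels TPM 1 and TPM 10, the right panel the low-level and high-level cells against the 16 negative cells. The G2/M and S phase lists are far from 0 in the high-level cells alone, and glycolysis, in the fit with the covariate, is at 0.72 in the low-level and -0.21 in the high-level cells.

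Genes of other cell types were measured in both classes. Leukocyte genes, some of which endothelium also expresses, summed to between 3659 and 16025 TPM in the positive and between 4956 and 25324 TPM in the negative cells, while Ptprc was listed at 0. Of the 16 entries of the mesenchymal list 10 had rows and 2 passed the filter, with a summed level of 32.2 to 393 TPM in the positive and 29.6 to 706 TPM in the negative cells. The erythroid list summed to between 0 and 397 TPM in the positive and between 0.555 and 1850 TPM in the negative cells, and the part of these cell types in the differences was not tested. At TPM 10 the mesenchymal list had a median of -0.98 over 2 tested genes, with Cdh2 (N-cadherin) lower, and the erythroid list a median of -1.22 over 2 tested genes. Cdh2 was above TPM 1 in 10 of 50 cells, 5 of them negative, so it passed the filter on low values only through the negative cells. Pluripotency genes summed to at most 54.1 TPM in the positive and 54.8 TPM in the negative cells. The classes were spread unevenly over the first title numbers: 7 positive and 3 negative cells had number 1, 4 and 4 had number 2, 6 and 2 had number 3, and 2 and 7 had number 4.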

How the data were processed

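The authors aligned the reads of each cell to mm10 with HISAT2 (2.1.0) and estimated expression with StringTie (1.3.4), as named in the submitters' processing notes, and deposited TPM per gene and cell. The table holds 11879 gene rows for 50 cells. TPM keeps no depth, and a value of 0 means only that the gene is listed at 0. No molecular identifiers were named, so copies made by amplification could not be told apart, and a gene missing from a cell can reflect sampling. Doublets were not called, and no cell was removed.

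The classes, gene lists and criteria were chosen with earlier results of these data known. Differences are on the log2(TPM + 1) scale, which understates low genes, from a linear fit on class and number of genes above TPM 1 (Python 3.11.15, numpy 2.4.6), checked on simulated data. Named genes were the rule's genes, Runx1, sort markers, the 12 highest and 12 lowest pair shares among called genes, called list members or otherwise the extremes of each list, and division genes; further names are marked in the text, and 1 gene that the rule names is not reported here. Alternatives were other class levels, no covariate, the first title number as a factor or left out in turn, another pseudocount and another filter, with further ones added after seeing the data. Cells are not replicates, so no test was made. List symbols were matched through RefSeq synonyms where needed. Promoters and gene positions are RefSeq's on GRCm38.p6, the assembly that mm10 names.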

Additional observations from a re-analysis of the deposited data

How the results depend on the processing

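The counts of genes, outside the cell cycle lists, that met the criterion by the rule (45 higher and 46 lower) depended on the setting, and so did list medians. The blood median of 0.09 was 0.45 with the first title number as a factor, 0.60 at TPM 0 and between -0.03 and 0.42 when each number was left out, and the endothelial median of -0.17 ran from -0.31 to -0.03 in the last of these. Without the covariate 12 genes were lower. With the first title number as a factor 90 were higher and 109 lower. With the level at TPM 10, 234 were lower, and at TPM 0, 199 were higher and 158 lower. With Top2a and Cdk1 as the class genes only 2 cells had both at or below TPM 1, and the counts were 764 and 1602, the endothelial median -0.68 and the blood median -0.69. In that setting Runx1 (-1.08), Heatr5a (-1.11), Rp9 (-1.38), Glipr2 (-1.72), Setd4 (0.32) and Pdf (0.60) changed sign. Leaving out each first title number in turn gave 106 to 129 higher and 123 to 201 lower genes, with 1 sign fewer required by construction. Settings added after seeing the data gave 129 higher and 308 lower genes for the high-level and 166 and 80 for the low-level cells against the negative cells, the last with an endothelial median of 0.14 and an S phase median of -0.11. The level of TPM 10 without cell 1-11 gave 95 and 332 genes and an endothelial median of -0.48, with Bet1 at 0.20. The same level without the covariate gave 192 and 13 genes and a metabolic median of 0.47, with Bet1 and Cfl2 both at 0.55. The share of cells with both genes above the level was 56% at TPM 0 and 20% at TPM 10, that with both at or below it was 12% and 58%, and it was 4% for Top2a and Cdk1. The causes were not tested, except that the Top2a and Cdk1 setting leaves 2 cells. TPM holds no depth, so no limit of detection per cell could be given. No paired analysis was possible because the labels put all 50 cells in 1 group and no test was made.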
